A study of Mus musculus with 4 samples.

Results

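Loricrin, involucrin and the fused-type S100 proteins are structural proteins of cornifying epithelium. Their genes were described here in cultured mouse tongue epithelial cells. The 8 genes, chosen by symbol, were Lor, Ivl, Flg, Flg2, Hrnr, Rptn, Crnn and Tchh, out of 54446 features with an Ensembl gene ID, and all 8 were found. RNA was sequenced from 4 libraries of tongue-derived epithelial cells of C57BL/6 mice. Of these, 2 were wild type (Control 1 and 2) and 2 carried a systemic Otub2 knockout by their labels (labelled Otub2 knockout 3 and 4). Otub2 encodes a deubiquitinase of the OTU family. All cells were grown in RPMI-1640 medium with fetal bovine serum. The labels do not give the knockout allele, the age of the animals or whether replicate libraries stem from different animals. What the p-values measure is therefore the spread between these samples, and it may be technical.

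In stratified squamous epithelium, keratinocytes that leave the basal layer replace their plasma membrane by the cornified envelope, a protein shell joined by transglutaminases. Involucrin (Ivl) is laid down early as a scaffold, and loricrin (Lor) is the glycine-rich protein that makes up much of the bulk of the finished shell. The fused-type S100 proteins join a calcium-binding S100 domain to long repeats. Profilaggrin (Flg) is cut into filaggrin, which bundles keratin filaments. Filaggrin 2 (Flg2) and hornerin (Hrnr) are related repeat proteins of the upper epidermis. Repetin (Rptn) is a crosslinked envelope precursor found in tongue and forestomach, cornulin (Crnn) marks differentiated squamous cells of mouth and esophagus, and trichohyalin (Tchh) hardens the inner root sheath of hair and the filiform papillae of the tongue. All 8 genes lie in the epidermal differentiation complex.

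On mouse chromosome 3 (GRCm38) the genes spanned 1.37 Mb. On the minus strand, Lor (ENSMUSG00000043165) was annotated at chr3:92080271-92083142 and Ivl (ENSMUSG00000049128) at chr3:92570902-92573735. The fused-type S100 genes were all on the plus strand. They ran in the order Crnn (ENSMUSG00000078657, chr3:93144787-93149819), Flg2 (ENSMUSG00000049133, chr3:93197278-93221391), Flg (ENSMUSG00000102439, chr3:93273523-93293686), Hrnr (ENSMUSG00000041991, chr3:93319749-93333570), Rptn (ENSMUSG00000041984, chr3:93393699-93399442) and Tchh (ENSMUSG00000052415, chr3:93442330-93449077).

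RefSeq promoter windows (GRCm38.p6) were found for all 8 genes. For the genes whose levels are described in most detail, and for Flg2 beside Flg, 150 bases upstream of the RefSeq transcription start are printed. They are written 5′ to 3′ on the strand of the gene, and bases inside an annotated transcript are left out. The stretch thus ends 55 bases before the RefSeq start for Ivl, 23 for Flg, 2 for Crnn and 1 for Rptn. It ends at the RefSeq start for Lor, Tchh and Flg2. Capitals mark matches to TGANTCA, where N is any base, a relaxed form of the site of AP-1 factors, and to TATAAA, the core of a TATA box. The coordinates are chr3:92083143-92083292 on the minus strand for Lor, chr3:92573791-92573940 on the minus strand for Ivl, and on the plus strand chr3:93393548-93393697 for Rptn, chr3:93144637-93144786 for Crnn, chr3:93442180-93442329 for Tchh, chr3:93273373-93273522 for Flg and chr3:93197123-93197272 for Flg2.
Lor: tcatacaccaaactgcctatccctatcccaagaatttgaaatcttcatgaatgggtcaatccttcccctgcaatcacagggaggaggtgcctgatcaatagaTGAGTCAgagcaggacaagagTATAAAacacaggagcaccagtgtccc
Ivl: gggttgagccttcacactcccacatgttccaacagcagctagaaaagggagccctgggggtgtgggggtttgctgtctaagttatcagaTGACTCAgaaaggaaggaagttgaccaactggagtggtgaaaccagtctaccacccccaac
Rptn: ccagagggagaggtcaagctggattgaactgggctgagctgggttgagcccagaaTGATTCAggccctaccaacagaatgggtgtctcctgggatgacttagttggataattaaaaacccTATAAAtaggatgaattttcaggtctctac
Crnn: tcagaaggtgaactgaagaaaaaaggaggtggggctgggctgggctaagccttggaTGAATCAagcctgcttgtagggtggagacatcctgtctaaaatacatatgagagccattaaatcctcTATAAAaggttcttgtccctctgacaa
Tchh: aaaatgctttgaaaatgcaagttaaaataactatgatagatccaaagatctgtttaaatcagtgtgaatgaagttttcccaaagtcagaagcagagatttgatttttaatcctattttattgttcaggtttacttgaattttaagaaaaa
Flg: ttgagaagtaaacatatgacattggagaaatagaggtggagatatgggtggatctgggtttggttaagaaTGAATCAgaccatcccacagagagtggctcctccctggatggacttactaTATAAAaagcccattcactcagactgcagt
Flg2: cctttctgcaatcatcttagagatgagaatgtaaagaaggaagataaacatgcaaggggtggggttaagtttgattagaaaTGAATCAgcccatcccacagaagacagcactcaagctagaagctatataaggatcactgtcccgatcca

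In the 250 bases before the start, TGANTCA was present in 6 of the 8 genes, all but Hrnr and Tchh. It was present in 6.75% of 32851 RefSeq promoter windows of the same length. The pattern reads the same on both strands, so each match counts once. TATAAA, searched on both strands, was also present in 6 of 8, Lor, Ivl, Flg, Hrnr, Rptn and Crnn, against 12.4% of all windows. The Ivl match to TATAAA lies within an annotated transcript and so outside the printed stretch. AACCNGTT, a relaxed form of the site of grainyhead-like factors, was present in Rptn (1.79% of windows), and CCAAT was present in Flg and Hrnr (33.8% of windows). From the first base of TGANTCA, Flg and Flg2 were identical at 20 of 24 bases, and at 13 of the 17 bases that follow the match. Lor and Rptn were identical at 15 of 24, and at 9 of the 17 bases that follow. The fixed letters of the match are shared by construction. The motifs were chosen with these sequences in view, and a match is a run of letters, not a measured binding site.

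The reads assigned to genes numbered 12185345 for Control 1, 11548186 for Control 2, 22719550 for the library labelled Otub2 knockout 3 and 18911259 for the library labelled Otub2 knockout 4, called library 3 and library 4 from here on. Library 3 stood apart. The summed level of 15 salivary secretory markers was 424399 CPM (reads scaled to a common library size) there, against 9.89 to 29.9 CPM in the other libraries. For 10 cardiomyocyte markers the sum was 17554 CPM there against 35.4 to 63.7 CPM. These CPM values are not shares of the reads of a library. Over all genes tested they summed to 847325 in Control 1, 840887 in Control 2, 1537662 in library 3 and 912749 in library 4. The summed level of 15 keratinocyte markers was 78267 CPM for Control 1, 72568 for Control 2, 41945 for library 3 and 60312 for library 4. Of these 15 genes, 8 were below both controls in both libraries labelled Otub2 knockout and 0 were above, against 33.1% and 26.9% of all genes tested. The sums for 8 fibroblast markers were 156 and 202 CPM for the controls, against 683 for library 3 and 467 for library 4. The part of these cells in the results that follow was not tested. The fold changes of those of the 8 genes that were tested, and of the pathway genes named, are also given for library 4 alone, without library 3. In bulk RNA, fewer cells of a type and less RNA per cell cannot be told apart. Otub2 itself measured 27.5 CPM in Control 1, 26.9 in Control 2, 19 in library 3 and 24 in library 4, a log2 fold change of -0.34 (edgeR adjusted p = 0.485), and -0.16 without library 3 (0.672). The count columns of the latter are headed OE with the same numbers, so the direction of the Otub2 manipulation rests on the sample titles and genotype labels.

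Lor was by far the most abundant of the 8 transcripts, followed by Rptn and Tchh, and these ranks held in all 4 libraries. On the authors' FPKM scale, which divides by gene length, Lor measured 1218, 1061, 197 and 275 in the order Control 1, Control 2, library 3 and library 4, which is also the order of every series of 4 values that follows. Rptn was at 45.9, 55.8, 13.9 and 40.8 FPKM. Tchh was at 1.45, 3.79, 1.56 and 11.2 FPKM. The other 5 genes stayed at or below 4.13 FPKM. Flg2 was last in every library, at 0.0230 FPKM or less, while Crnn, Ivl, Hrnr and Flg changed places among themselves. Lor took 96.1%, 94.3%, 92.1% and 81.9% of the summed FPKM of the 8 genes. The Rptn share was 3.62%, 4.97%, 6.50% and 12.1%.

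**Figure D1:**
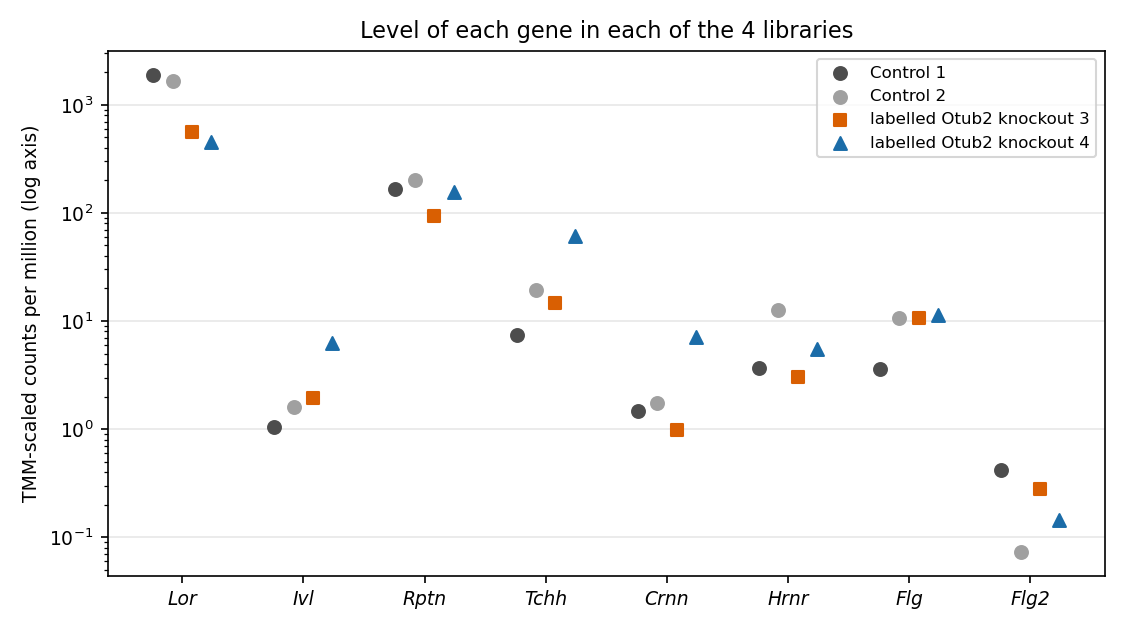
Level of each of the 8 genes in each library, in CPM on a log axis, 1 point per library with no averaging. Lor lies between 452 and 1902 CPM with both libraries labelled Otub2 knockout below both controls, and Flg2 lies below 1 CPM in every library.

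The study compared cells labelled Otub2 knockout with wild-type cells, and for these genes the groups were compared on counts scaled by TMM, a normalization that assumes most genes are alike between libraries. Of the 8 genes, 7 had enough counts to test and 0 passed an adjusted p of 0.05 in edgeR's quasi-likelihood test. None of the 21916 genes tested passed (0% higher and 0% lower), while an unadjusted p under 0.05 was reached by 9.42% in the higher and 15.2% in the lower direction. By limma voom 0 genes passed too. DESeq2, run on the same genes, called 3.43% higher and 1.2% lower, and Lor was the 1 called gene of the 7. Both libraries labelled Otub2 knockout lay below both controls for Lor and Rptn, and above both for Ivl and Flg. The background was 33.1% of tested genes below and 26.9% above. The groups overlapped for Hrnr, Crnn and Tchh, and for the untested Flg2. The 2 of 7 in each direction are close to the background shares.

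Lor reached 1902 CPM in Control 1 and 1643 in Control 2, compared with 564 in library 3 and 452 in library 4. The groups did not overlap, and the spread within each was small beside the gap between them. The means were 1772 ± 183 and 508 ± 79.1 CPM (SD, n = 2 each), a 3.49-fold difference. The log2 fold change was -1.80 (SE 0.349, 95% interval -2.69 to -0.92), with an edgeR adjusted p of 0.166, which did not pass. DESeq2 gave -1.75 with an adjusted p of 0.000453. The fold change was negative in all 14 alternative analyses, from -2.29 to -1.55, with adjusted p from 2.67e-10 to 0.832. Lor, which is not itself among the keratinocyte markers, was also lower relative to their sum. Its level was 2.43%, 2.26%, 1.34% and 0.749% of the summed keratinocyte markers.

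Ivl was detected at far lower levels, with 15, 22, 28 and 129 reads. Scaled, these were 1.05, 1.61, 1.96 and 6.24 CPM. Library 4 alone stood well above the controls, and library 3 was just above Control 2. The log2 fold change was 1.63 (SE 0.724, edgeR adjusted p = 0.23), with an interval of -0.22 to 3.47. Its position above both controls, and that of Flg, was lost with upper-quartile scaling, library size only and FPKM. With upper-quartile scaling the background was 10.4% above and 48.5% below, and with library size only it was 9.17% and 43%. On the counts, the scaffold gene involucrin and the bulk gene loricrin thus had fold changes of opposite sign, of which neither passed.

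Rptn measured 167, 201, 92.8 and 156 CPM. Both libraries were below the controls, library 4 by little. The log2 fold change was -0.57 (SE 0.346, 95% interval -1.45 to 0.32, edgeR adjusted p = 0.334). Relative to the summed keratinocyte markers, Rptn measured 0.213%, 0.278%, 0.221% and 0.259%, so on that scale the groups overlapped. Among the other tested members, Tchh lay above both controls on that scale (0.00948%, 0.0264%, 0.0348% and 0.1%), as did Ivl and Flg, while Hrnr and Crnn overlapped. The share of all tested genes above both controls on that scale was not computed. The marker sum itself was lower in libraries 3 and 4, at 41945 and 60312 CPM against 78267 and 72568 in the controls. A gene of unchanged CPM therefore rises on that scale. The non-overlap of Rptn on the CPM scale was also lost with RLE size factors, under which 31.4% of tested genes lay below both controls and 29% above.

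Tchh measured 7.42, 19.2, 14.6 and 60.5 CPM. Library 3 lay between the controls, and library 4 was well above both. The log2 fold change was 1.5 (SE 0.809, 95% interval -0.56 to 3.56, edgeR adjusted p = 0.289). Crnn showed a similar split, at 1.47, 1.76, 0.978 and 7.11 CPM. Its log2 fold change was 1.33 (SE 0.959, 95% interval -1.11 to 3.77, edgeR adjusted p = 0.399), and the sign turned to -0.72 without library 4.

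The filaggrin-type genes were at low levels in every library. Flg measured 3.57, 10.5, 10.7 and 11.3 CPM. Although libraries 3 and 4 both lay above both controls, Control 2 and library 3 were almost equal. The log2 fold change was 0.64 (SE 0.611, 95% interval -0.92 to 2.19, edgeR adjusted p = 0.517). Hrnr was at 3.64, 12.7, 3.0 and 5.52 CPM, with overlapping groups. Its log2 fold change was -0.93 (SE 0.737, 95% interval -2.81 to 0.94, edgeR adjusted p = 0.437), and it turned to 0.27 without Control 2. Flg2 had counts of 6, 1, 4 and 3, too few to compare the groups.

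**Figure D2:**
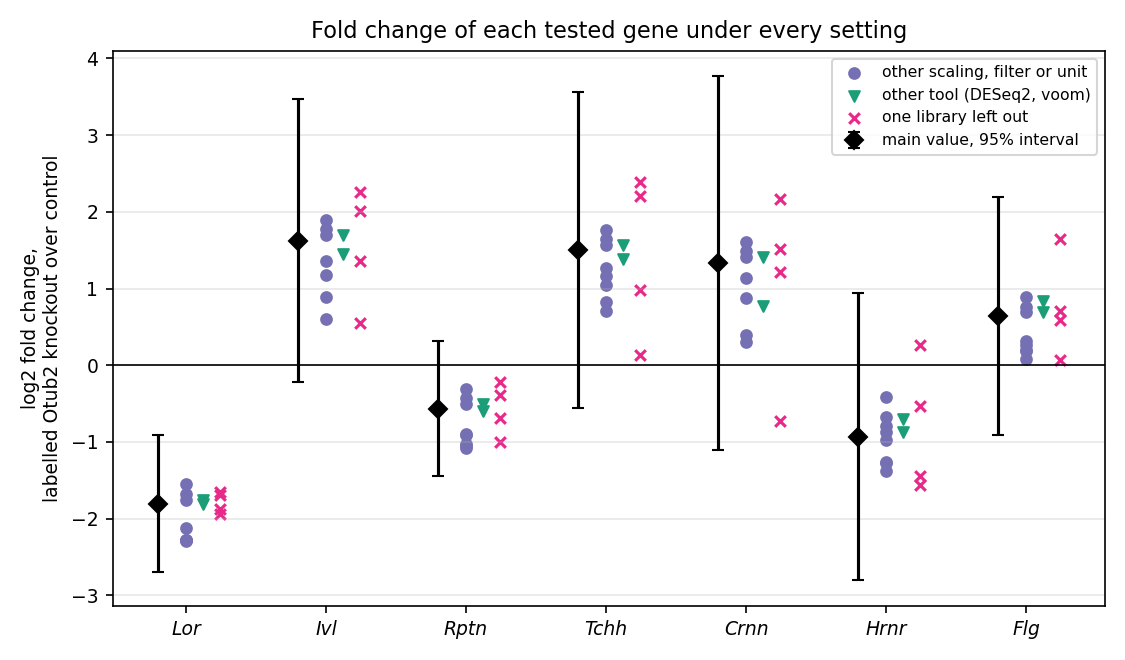
Fold change of the 7 tested genes, libraries labelled Otub2 knockout over controls, on a log2 axis. Diamonds with bars give the edgeR value and its 95% interval, and the other symbols give each alternative scaling, filter, unit, tool or set of libraries; Lor stays between -2.29 and -1.55, whereas Crnn and Hrnr each cross zero when 1 library is left out.

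The 2 libraries labelled Otub2 knockout differed from each other in most of these genes. On the CPM scale, the ratio of library 4 to library 3 was 7.28 for Crnn (exact 95% counting interval 4.2 to 13.6), 4.14 for Tchh (3.58 to 4.82) and 3.19 for Ivl (2.11 to 4.99). It was 1.84 for Hrnr and 1.68 for Rptn, 1.05 for Flg and 0.80 for Lor. Among all genes tested, 10.1% were at least 2-fold higher in library 4 than in library 3, and 25.2% at least 2-fold lower. These intervals cover counting error only.

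Taken alone against both controls, library 4 had higher Ivl, Crnn and Tchh and lower Lor. The edgeR log2 fold changes were 2.25 for Ivl (adjusted p = 2.24e-09), 2.16 for Crnn (4.2e-09), 2.21 for Tchh (1.29e-13) and -1.94 for Lor (2.67e-10). Flg (0.70), Hrnr (-0.54) and Rptn (-0.21) did not pass. Library 3 alone had lower Lor (-1.66, edgeR adjusted p = 7.61e-08), Hrnr (-1.44, 0.000594) and Rptn (-0.99, 0.00182). There, Ivl (0.55), Crnn (-0.72), Tchh (0.13) and Flg (0.59) did not pass. Lor was thus called lower in each library alone. These fits compare 1 library with the controls and assume that it varies like them, and they share the same controls. The background was correspondingly large: 18.8% of genes were called higher and 22% lower for library 4, and 22.4% higher and 12.7% lower for library 3.

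**Figure D3:**
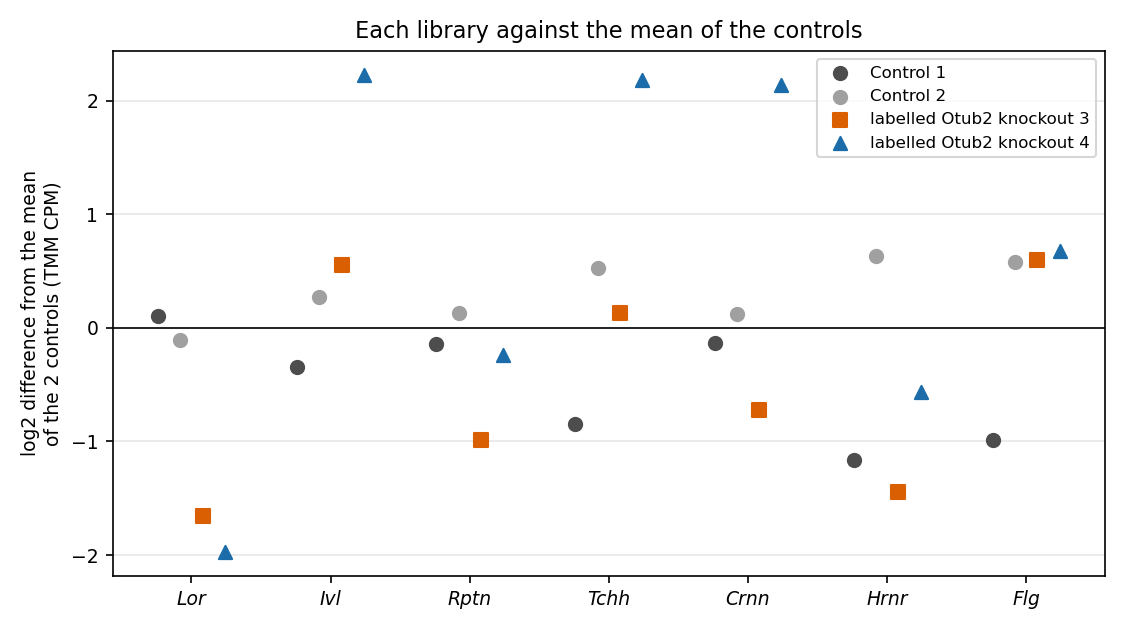
Log2 difference of each library from the mean of the controls for the 7 tested genes, 1 point per library. Library 4 lies near 2 for Ivl, Tchh and Crnn while library 3 lies between -0.72 and 0.56 for them, and both libraries lie below -1.6 for Lor.

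The controls were close for Lor and Rptn and far apart for the filaggrin-type genes and Tchh. The ratio of Control 2 to Control 1 was 0.864 for Lor (exact 95% counting interval 0.848 to 0.879) and 1.21 for Rptn (1.14 to 1.28). It was 3.48 for Hrnr (2.54 to 4.84), 2.95 for Flg (2.13 to 4.15) and 2.59 for Tchh (2.06 to 3.27). These 3 were the members at least 2-fold higher in Control 2, out of 5 whose control mean was 2 CPM or more, against 0.754% of 14590 such genes. The threshold was chosen after the values were seen. Other differentiation genes differed in either direction between the controls. Keratin 10, a suprabasal keratin, was at 840 CPM in Control 1 and 1894 in Control 2, and its partner keratin 1 at 27.9 and 80.3 CPM. Keratin 4, a keratin of the mucosa, was at 2808 and 1481 CPM. Of 29 neighbours in the epidermal differentiation complex at that level, 7 were at least 2-fold lower in Control 2 and 0 higher, against 1.18% and 0.754% of all such genes. All 7 belong to the Sprr2 group of small proline-rich genes. Members of that group are similar in sequence, and how reads were assigned among them is not given. The keratins and neighbours too were chosen after the values were seen. Flg and Hrnr are long, at 18829 and 11187 bases by the lengths behind the authors' FPKM. Over 1417 genes of at least 10 kb, the median log2 ratio of Control 2 to Control 1 was 0.15. It was 0.017 for genes of 2 to 10 kb and -0.162 for genes under 2 kb. Of the 1417 long genes, 0.353% were at least 2-fold higher in Control 2, against 0.754% of all 14590 such genes. The part of length in the Flg and Hrnr ratios was not tested.

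The products of these genes are cut, deiminated and crosslinked by other enzymes. Among genes that process filaggrin, 16 of 17 were tested, 0 passed in edgeR, 4 lay above and 5 below both controls in both libraries, and the median log2 fold change was -0.13, against 0.09 for all genes tested. The shares, 25% and 31.2%, were close to the 26.9% and 33.1% of all genes. Casp14, the protease that degrades filaggrin, measured 35.8, 42.0, 8.31 and 11.7 CPM (log2 fold change -1.96, SE 0.341, edgeR adjusted p = 0.166). Spink5, which inhibits the kallikreins that act on corneodesmosomes, measured 4919, 4760, 2263 and 1617 CPM. Padi3, a deiminase that acts on trichohyalin and filaggrin, was at 0.910 and 0.879 against 3.35 and 12.7 CPM, and the lysosomal protease gene Ctsl was at 139 and 121 against 263 and 391 CPM. For all 4 genes the groups did not overlap. DESeq2 called each of them, with adjusted p of 0.00263 for Casp14, 0.0292 for Spink5, 0.00727 for Padi3 and 0.036 for Ctsl. In library 4 alone the edgeR log2 fold changes were -1.71, -1.56, 3.85 and 1.61 in the same order. Apart from Padi4, genes named from the pathway lists here and below were picked for small p in the edgeR test of all 4 libraries. That test includes library 4, so non-overlap, DESeq2 calls and values in library 4 alone are no separate support for them.

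Among genes for crosslinking enzymes and scaffold partners of the envelope, 17 of 18 were tested. In edgeR 0 passed, 10 lay below and 1 above both controls, and the median log2 fold change was -0.68. Krt10 measured 49.2 CPM in library 3 and 236 in library 4, below both controls (log2 fold change -3.26, SE 0.889, edgeR adjusted p = 0.166). Cst6, an inhibitor of cathepsins and legumain in the upper epidermis, measured 154, 110, 49.0 and 29.0 CPM. DESeq2 called both, with adjusted p of 0.00599 and 0.0121. The transglutaminase gene Tgm5 was at 64.6 and 64.2 against 32.8 and 25.6 CPM, and Krt78 was at 125 and 127 against 77.7 and 75.5 CPM. The groups did not overlap for either. In library 4 alone the edgeR log2 fold changes were -2.51 for Krt10, -2.16 for Cst6, -1.30 for Tgm5 and -0.71 for Krt78. Of the list, 58.8% lay below and 5.88% above both controls, against 33.1% and 26.9% of all genes, a description with no test.

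For the partners of trichohyalin in inner root sheath, hair medulla and filiform papillae, 14 of 17 genes were tested, 0 passed, 7 lay below and 1 above both controls, and the median log2 fold change was -0.57. These are 50% and 7.14% of the list, against 33.1% and 26.9% of all genes. Padi3 was the gene above. Padi1, another deiminase, was at 0.280, 1.10, 0.908 and 6.00 CPM, so that library 4 was highest for both deiminases, as for Tchh. Krt84, a keratin of the filiform papillae, was at 6.58 and 7.18 against 2.30 and 3.29 CPM. Foxn1, a transcription factor of hair and epidermal differentiation, was at 22.4, 27.1, 10.8 and 17.1 CPM. In library 4 alone the edgeR log2 fold changes were 3.15 for Padi1, -1.04 for Krt84, -0.50 for Foxn1 and 0.28 for Padi4. The hair-type keratins Krt31, Krt33a, Krt34, Krt35 and Krt86 summed to 1.76 CPM or less in every library, and none was tested.

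Of 27 transcriptional regulators of the complex, all were tested, 0 passed, 13 lay below and 3 above both controls, and the median log2 fold change was -0.35. These are 48.1% and 11.1% of the list, against 33.1% and 26.9% of all genes. Grhl3, a grainyhead-like factor required for the skin barrier, measured 214, 234, 98.0 and 116 CPM (log2 fold change -1.07, SE 0.26, edgeR adjusted p = 0.166). Klf4, a zinc-finger factor needed for barrier formation, was at 868 and 890 against 313 and 519 CPM. Cebpb, a factor of the C/EBP family, was at 80.7 and 47.9 against 15.1 and 30.6 CPM. The groups did not overlap for any of these 3 genes, and DESeq2 called none of them. In library 4 alone the edgeR log2 fold changes were -0.93 for Grhl3, -0.73 for Klf4 and -1.04 for Cebpb.

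**Figure D4:**
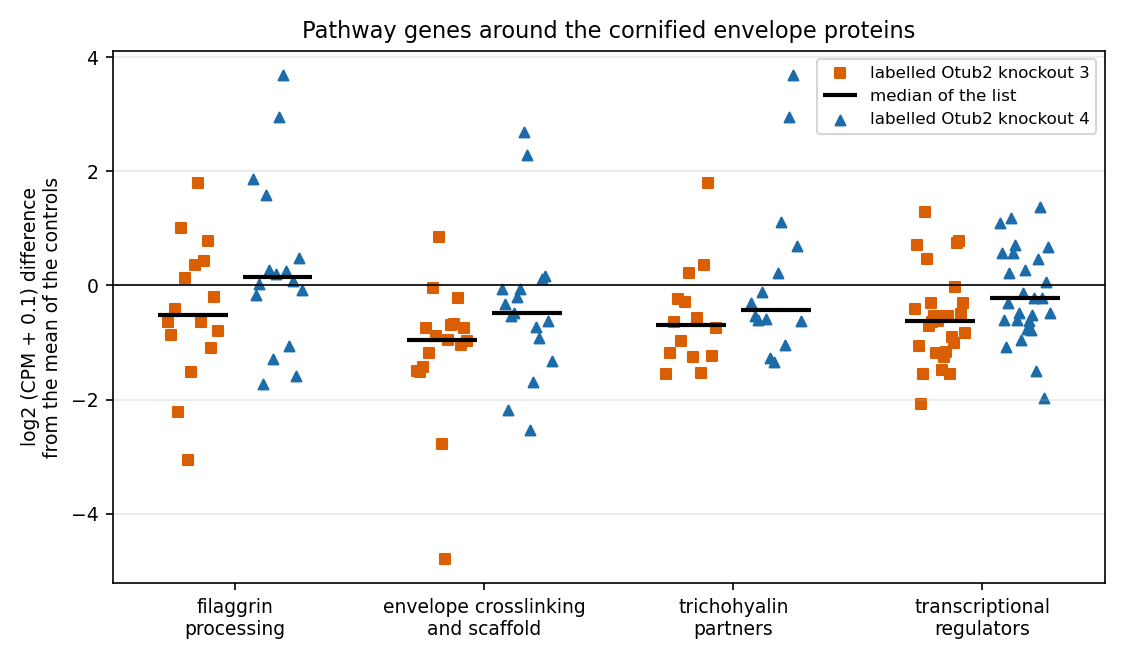
Log2 difference in CPM (0.1 added) of each tested pathway gene from the mean of the controls, for the library labelled Otub2 knockout 3 (squares) and 4 (triangles), with the median of each list as a bar. The medians of the 16 filaggrin-processing genes are -0.52 and 0.14, and those of the 17 envelope genes are -0.95 and -0.49.

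The complex also holds the small proline-rich (Sprr) and late cornified envelope (Lce) gene families. From Tchhl1 to S100a9, 94 other genes were annotated, 46 were tested, 6 lay above and 11 below both controls, and 0 passed in edgeR. These are 13.0% and 23.9%, against 26.9% and 33.1% of all genes. Library 4 split along the chromosome. Between Ivl and Crnn, 20 of 22 tested genes were at least 2-fold above both controls in library 4, against 7.89% of all genes, and the exceptions were Gm4202 and Lce1m. Over the 22 genes the median difference in library 4 was 2.48 on the log2 scale. In library 3, 1 of these 22 genes, Lce1b, was at least 2-fold above both controls, against 15.1% of all genes, and the median difference was -0.30. Between Lor and Ivl, where 15 of 19 tested genes are of the Sprr family, 0 were 2-fold above in either library, and in library 4, 2 were at least 2-fold below, against 25.4% of all genes. In library 3, 8 of these 19 were at least 2-fold below both controls, against 16.1% of all genes.

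Summed over the 6 tested Lce3 genes, the level was 148, 91.5, 125 and 676 CPM. The 12 tested Lce1 genes summed to 12.9, 8.13, 11.1 and 99.9 CPM. Library 4 was thus high and library 3 lay between the controls for both groups, as for Tchh. In the Sprr family, Sprr1b measured 805, 887, 337 and 293 CPM, both libraries below both controls, as for Lor. Sprr1a was at 709, 581, 376 and 597 CPM, and the 12 tested Sprr2 genes summed to 618, 331, 190 and 511 CPM, so library 4 lay between the controls for both. Members of these families are similar in sequence, and how the authors' counting assigned reads among copies is not given in the sources used here. The segments between Lor, Ivl and Crnn were set after the values were seen, and the difference between libraries 3 and 4 was not tested beyond counting.

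**Figure D5:**
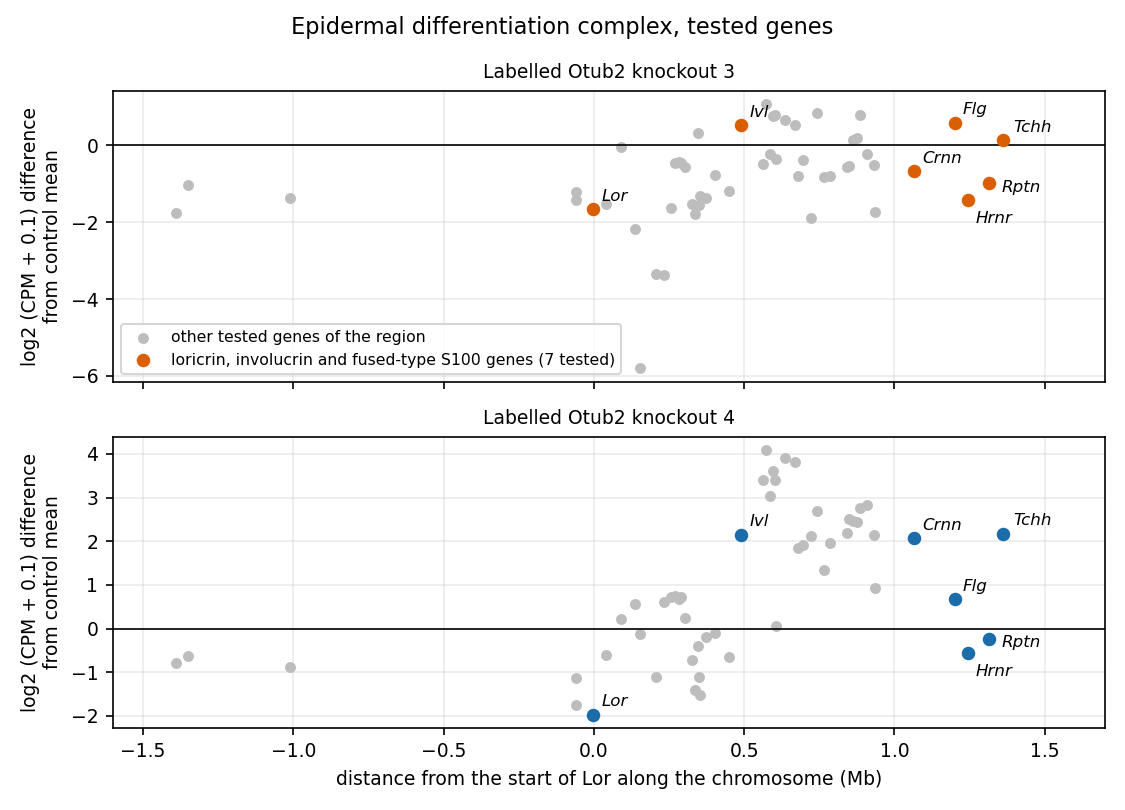
Log2 difference in CPM (0.1 added) from the mean of the controls for tested genes of the epidermal differentiation complex, by distance from Lor, in library 3 (top) and library 4 (bottom). In library 4 the genes between Ivl and Crnn reach 4.09, while Lor, Hrnr and Rptn lie below zero in both libraries.

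The genes whose levels across the 4 libraries were most like those of each member were found by the distance between centred log2 CPM values, over the 11263 genes that averaged 5 CPM or more. For Lor these were Runx3 (distance 0.115), Pinlyp (0.168) and Teddm3 (0.179), and Runx3 was at 11.1, 9.89, 3.49 and 2.52 CPM. For Rptn they were Abracl (0.0775), Tfap2c (0.0786) and Zfp185 (0.0876). For Tchh they were Serpinb10 (0.300), Parpbp (0.347) and Mmp9 (0.363), each highest in library 4 and lowest in Control 1. For Flg they were Sacm1l (0.122), Rps4l (0.237) and Mfsd4a (0.328), each lowest in Control 1. Hrnr had no close match, with Nptx1 at 0.638, Csta1 at 0.677 and Kbtbd8 at 0.749. With 4 libraries, such likeness describes these samples only.

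Several of these genes contain long internal repeats, and this bears on how reads can be placed. The share of 50-base stretches that occur more than once within the longest annotated transcript was 79.2% for Flg, 69.1% for Hrnr and 65.3% for Flg2. It was 10.1% for Tchh, 5.49% for Rptn and 0.374% for Ivl, and 0 for Lor and Crnn. Stretches shared with another gene were found in Ivl only, at 0.694%. Values for Flg, Hrnr and Flg2 are therefore uncertain if reads with several positions were dropped, while those for Lor, Rptn, Tchh and Crnn rest largely on unique sequence. Genes that overlap the members in the annotation had at most 6 counts in any library.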

How the data were processed

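The authors deposited raw read counts per gene for 4 libraries in 1 table. Beside each count stands the authors' FPKM. HISAT2 and DESeq appear in the submitters' processing notes, as does GRCh38, which is human although the features carry mouse IDs. Not given in the sources used here are the counting tool, strand setting, annotation and treatment of reads with several positions. The number of columns left unused was 0. The whole table held 12541345 (Control 1), 11882900 (Control 2), 23017183 (library 3) and 19085713 (library 4) reads. Features without a gene ID (14785) took 0.914% to 2.84% of counts and were left out. Of 54446 gene IDs, 54409 were found in GENCODE M21 (GRCm38), which gave coordinates.

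The groups were compared by edgeR 4.0.16 (R 4.3.3; quasi-likelihood F-test) after TMM scaling and filterByExpr, using Benjamini-Hochberg adjustment at 0.05 over 21916 genes. Standard errors come from the F statistic, and 95% intervals use its degrees of freedom. CPM uses TMM-scaled library sizes. Alternatives used DESeq2 1.42.0, limma 3.58.1 (voom, and log2 FPKM with 0.1 or 1 added), other scalings and filters, and 1 library left out. The tests were tested on simulated data. Named genes were the 8 members, Otub2, up to 4 tested genes of smallest p per list, and the 3 genes nearest in level to each member with a mean of at least 5 CPM; 1 gene that this rule names is not reported here, and names of neighbours, Krt1 and Krt4 were added after values were seen. The members and lists were chosen with earlier results of these data known. Pi3 of the envelope list was not matched by symbol.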

Additional observations from a re-analysis of the deposited data

How the results depend on the processing

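Across 14 alternatives (13 for Ivl and Crnn), the sign of the fold change held in every one for Lor, Ivl, Flg, Rptn and Tchh. It reversed for Hrnr without Control 2 (log2 fold change 0.27) and for Crnn without the library labelled Otub2 knockout 4 (-0.72). With 1 library left out, Hrnr ran from -1.56 to 0.27 and Crnn from -0.72 to 2.16. Other scalings moved the median log2 fold change of all genes from 0.09 to between -0.41 (FPKM plus 0.1) and 0.34 (features without a gene ID kept); relative to each median, Lor lay between -2.21 and -1.61. Genes called higher and lower, 0 and 0 in edgeR, were 751 and 262 with DESeq2, 37 and 1433 with library size only, 6 and 3 with no filter on low counts, 60 and 2658 on FPKM plus 0.1, and 50 and 2864 on FPKM plus 1. Leaving out 1 library gave 0 to 5243 higher and 0 to 5097 lower. DESeq2 called 1 member, Lor, and leaving out 1 library called 0 to 4. Members above both controls numbered 0 in place of 2 with upper-quartile scaling, library size only, FPKM plus 0.1 and FPKM plus 1. The number was also 0 at a mean CPM of at least 5, where Flg overlapped and Ivl was filtered out. Members below numbered 1 in place of 2 (Rptn lost) with DESeq2, RLE size factors, no filter and features without a gene ID kept. With 1 library left out, 2 to 4 lay above and 2 to 4 below the controls that remained. The matching share of all genes was computed for upper-quartile scaling, library size only and RLE size factors, as given above. It was not computed for the other alternatives or for these fits with 1 library left out. Non-overlap is easier to reach with fewer libraries, so these numbers cannot be set against those from all 4. Of the pathway list genes, 6 were called with DESeq2, 1 with library size only, 2 on FPKM plus 0.1 and 3 on FPKM plus 1, and 0 to 41 with 1 library left out. Those above both controls, 8 in edgeR, numbered 4 with upper-quartile scaling, 3 at a mean CPM of at least 5, and 2 with library size only and on either FPKM scale. The filter at 5 CPM also removed list genes such as Kprp, which averaged 4.74 CPM and lay above both controls in edgeR. Leaving out 1 library gave 8 to 25 above and 32 to 53 below, again with no share of all genes computed. The cause of these changes was not tested. No paired analysis was possible because the groups share no replicate number. With 2 libraries a group, and library 3 holding salivary and cardiac transcripts, differences that do not pass are not shown to be absent. The counts of Flg2, and of Ivl and Crnn in 3 libraries, limit their precision.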

Other observations

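Keratin 1 and keratin 10, partner keratins of suprabasal cells, were both below the controls in library 3 and on opposite sides of them in library 4. In the order Control 1, Control 2, and the libraries labelled Otub2 knockout 3 and 4, Krt1 measured 27.9, 80.3, 7.82 and 264 CPM. Krt10 measured 840, 1894, 49.2 and 236 CPM. Library 4 was thus the highest of the 4 libraries for Krt1, as for Ivl, Crnn and Tchh, and below both controls for Krt10, as for Lor. Crct1, a gene between Ivl and Crnn that encodes a cysteine-rich protein, measured 114, 101, 74.8 and 476 CPM. Kprp, a keratinocyte proline-rich protein gene of the same stretch, was at 2.03, 1.54, 3.28 and 12.1 CPM. These genes were chosen after their values were seen, and the difference between libraries 3 and 4 was not tested.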
